A study of Drosophila melanogaster with 32 samples.

Results

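RNA from the heads of male Drosophila melanogaster of the strain hsp70-1c, frozen 24 h after training, was compared with RNA from heads of the same strain frozen 5 h after training. The comparison used 6 of the 32 libraries of the series, chosen by their titles: 3 libraries at 24 h, which the labels call long-term, and 3 at 5 h, which they call short-term. Each library was made from a separate collection of about 100 flies, and all 17559 genes of the count tables were considered. The 4 naive hsp70-1c libraries entered the same fit, where they shared in the estimate of spread, and the 10 hsp70-4c libraries served the comparison of strains given further on. The title of the series places the strains in a study of Hsp70, the heat-inducible chaperone, in memory formation. All flies of a comparison share the strain, but the labels do not describe the alleles behind the strain names, the training, the age of the flies, or the time of day at which they were frozen. Any such difference between the collections at 24 h and at 5 h cannot be told apart from the interval after training.

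A fly head holds the brain and the eyes together with a layer of fat body, the tissue that stores and releases fat and sugar and secretes many blood proteins. Adipokinetic hormone, acting through its receptor AkhR, mobilises these stores. In neurons, firing induces a set of activity-regulated genes, among them the transcription factors Hr38 and sr. The circadian clock is a feedback loop in which Clk and its partner switch on per, tim, vri and Pdp1, whose messages rise and fall over the day. Because the heads were sequenced whole, fewer cells of a type and less RNA per cell cannot be told apart in any of the results.

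The libraries held 6669182 to 8107295 assigned reads at 24 h and 7878886 to 10344890 at 5 h. Reads that the counting assigned to no feature made up 65.0 ± 0.90% at 24 h and 63.6 ± 1.26% at 5 h (SD, n = 3 each). An exact 2-sided permutation test of this difference gave p = 0.3, where the smallest possible p is 0.1. Such reads need not lie outside genes, because the strand setting and annotation release of the counting are not given in the sources used here. Reads of the mitochondrial genome took 15.6 to 17.5% of the assigned reads at 24 h and 17.7 to 21.0% at 5 h, ranges that did not overlap. The part of that difference in the results was not tested. Of the 20 tested genes of the mitochondrial genome, 0 passed in edgeR or DESeq2 and 0 had an unadjusted p under 0.05.

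Few or no reads were counted for the genes after which the strain is named. The copies are nearly identical, and how reads that match several copies were counted is not given in the sources used here, so low counts need not mean low expression. Of the 6 inducible Hsp70 copies, Hsp70Aa had 2, 2 and 0 reads at 24 h and 1, 2 and 0 reads at 5 h. The other 5 copies had 0 reads in all 6 libraries. Among these copies, Hsp70Bc had 3 reads in total over the naive hsp70-1c libraries and 342 over the hsp70-4c libraries. A total of 0 reads over the 3 libraries allows up to 0.132 CPM (counts per 1e+06 assigned reads) at 24 h and 0.112 CPM at 5 h, for counting error only. Summed over the copies, log2(CPM + 1) was 0.232 ± 0.203 at 24 h and 0.138 ± 0.129 at 5 h (SD, n = 3 each), which an exact 2-sided permutation test did not separate (p = 0.6, smallest possible 0.1). None of the copies had enough reads for the test across genes.

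Between 24 h and 5 h, 143 of 10514 tested genes (1.36%) differed at an adjusted p under 0.05 in edgeR's quasi-likelihood test with Benjamini-Hochberg adjustment. Of these, 92 genes (0.875%) were higher at 24 h and 51 (0.485%) were lower. Most differences were moderate: 29 of the 143 reached 2-fold, 20 of them higher and 9 lower. At an unadjusted p under 0.05 there were 1059 genes (10.1%), and DESeq2 called 261 genes (2.94% of the 8878 it adjusted), 157 higher (1.77%) and 104 lower (1.17%). In each of the 143 genes the 3 libraries at 24 h lay wholly above or wholly below the 3 at 5 h, which was so for 1601 of all tested genes (15.2%; 7.89% higher and 7.33% lower). The number of calls depended on single libraries: it was 68 without replicate 2 at 24 h, 88 without replicate 1 at 5 h and 93 without replicate 2 at 5 h. All 143 genes kept the sign of their difference in each of the 17 alternative settings, and 51 of them passed in each one.

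**Figure D1:**
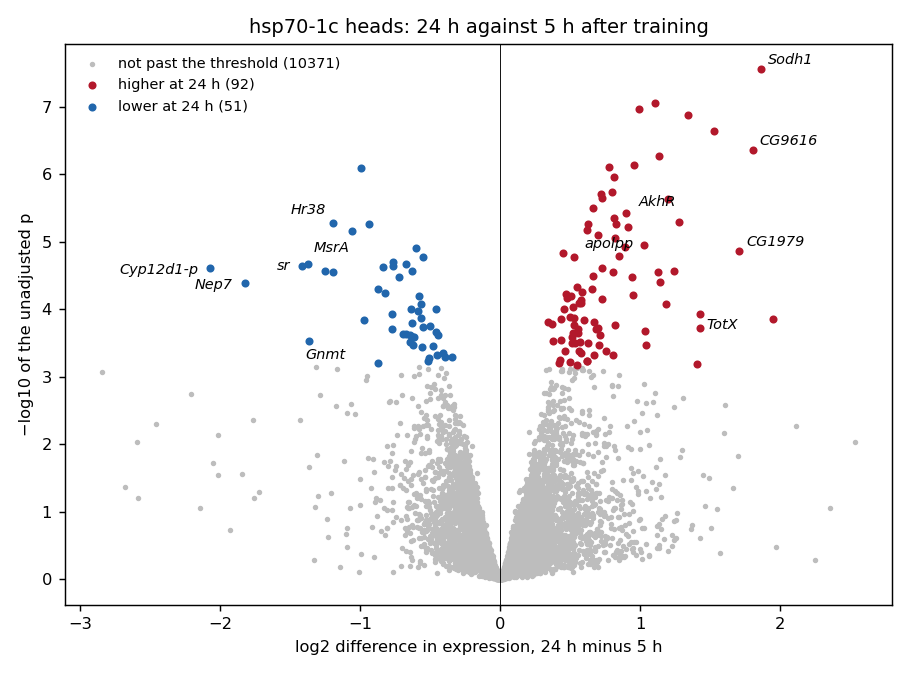
Each point is 1 of the 10514 tested genes, with the log2 difference in expression, 24 h minus 5 h, on the horizontal axis and −log10 of the unadjusted edgeR p on the vertical axis. The 92 red genes were higher at 24 h and the 51 blue genes lower, and Sodh1 combined a large difference with the smallest p.

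The largest group of related genes that were higher at 24 h handles sugars and sugar alcohols. In the list of sugar and polyol metabolism, 6 of 37 tested genes passed and were higher at 24 h (16.2%, against 0.875% of all tested genes) and 0 were lower. The median difference over the list was 0.34 on the log2 scale, against 0.02 over all tested genes, and 33 of the 37 were positive, against 53.6% of all tested genes. Sodh1, a sorbitol dehydrogenase that turns sorbitol into fructose, had 407, 398 and 407 CPM at 24 h, against 105, 122 and 106 CPM at 5 h. The groups were far apart, with little spread within either, and the log2 difference was 1.86 ± 0.15 (SE; edgeR adjusted p = 0.00029). Its gene lies on chromosome 3R, positions 7052335 to 7054541 of build dm6. The related dehydrogenase Sodh2 had 58.5, 60.4 and 66.9 CPM at 24 h and 36.4, 37.5 and 48.9 CPM at 5 h, a smaller log2 difference of 0.60 ± 0.11 (edgeR adjusted p = 0.018).

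Further members of the list serve galactose and UDP-sugars. UGP, which makes UDP-glucose, had 230, 222 and 263 CPM at 24 h and 151, 147 and 155 CPM at 5 h, so each library at 24 h was above each at 5 h (log2 difference 0.66 ± 0.11, edgeR adjusted p = 0.0066). Galk, the galactokinase, had 249, 277 and 318 CPM at 24 h and 168, 185 and 160 CPM at 5 h (0.72 ± 0.14, edgeR adjusted p = 0.024). The list also held the call of fbp, the fructose-bisphosphatase of glucose synthesis, with a log2 difference of 0.56 ± 0.11 (edgeR adjusted p = 0.021). Not every step of these routes passed: Galt, the galactose-1-phosphate uridylyltransferase, had a log2 difference of 0.22 ± 0.19 (edgeR adjusted p = 0.83), and the glycolytic enzymes Pfk, Eno and Ald1 stood at 0.05, 0.04 and −0.03. Only 2 members of the list passed without replicate 2 or replicate 3 at 24 h, or without replicate 1 or replicate 2 at 5 h; Sodh1 and UGP passed whichever library was left out.

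Outside that list, and grouped after their values were seen, other enzymes of sugar handling were also called. CG32444, annotated as an aldose 1-epimerase, had 329, 300 and 213 CPM at 24 h and 145, 131 and 105 CPM at 5 h (log2 difference 1.14 ± 0.17, edgeR adjusted p = 0.0078). Akr1B, of the aldose reductase family, had 429, 504 and 520 CPM at 24 h and 207, 236 and 232 CPM at 5 h (1.1 ± 0.11, edgeR adjusted p = 0.00034). Enzymes of the non-oxidative pentose phosphate pathway moved in the same direction. Taldo, the transaldolase, differed by 0.73 ± 0.09, CG8036, a transketolase, by 0.70 ± 0.10 and Rpi, the ribose-5-phosphate isomerase, by 0.66 ± 0.09 on the log2 scale (edgeR adjusted p of 0.0016, 0.0031 and 0.0021). Zw and Pgd, the dehydrogenases of the oxidative branch, had log2 differences of 0.19 and 0.27 and did not pass (edgeR adjusted p of 0.76 and 0.42).

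**Figure D2:**
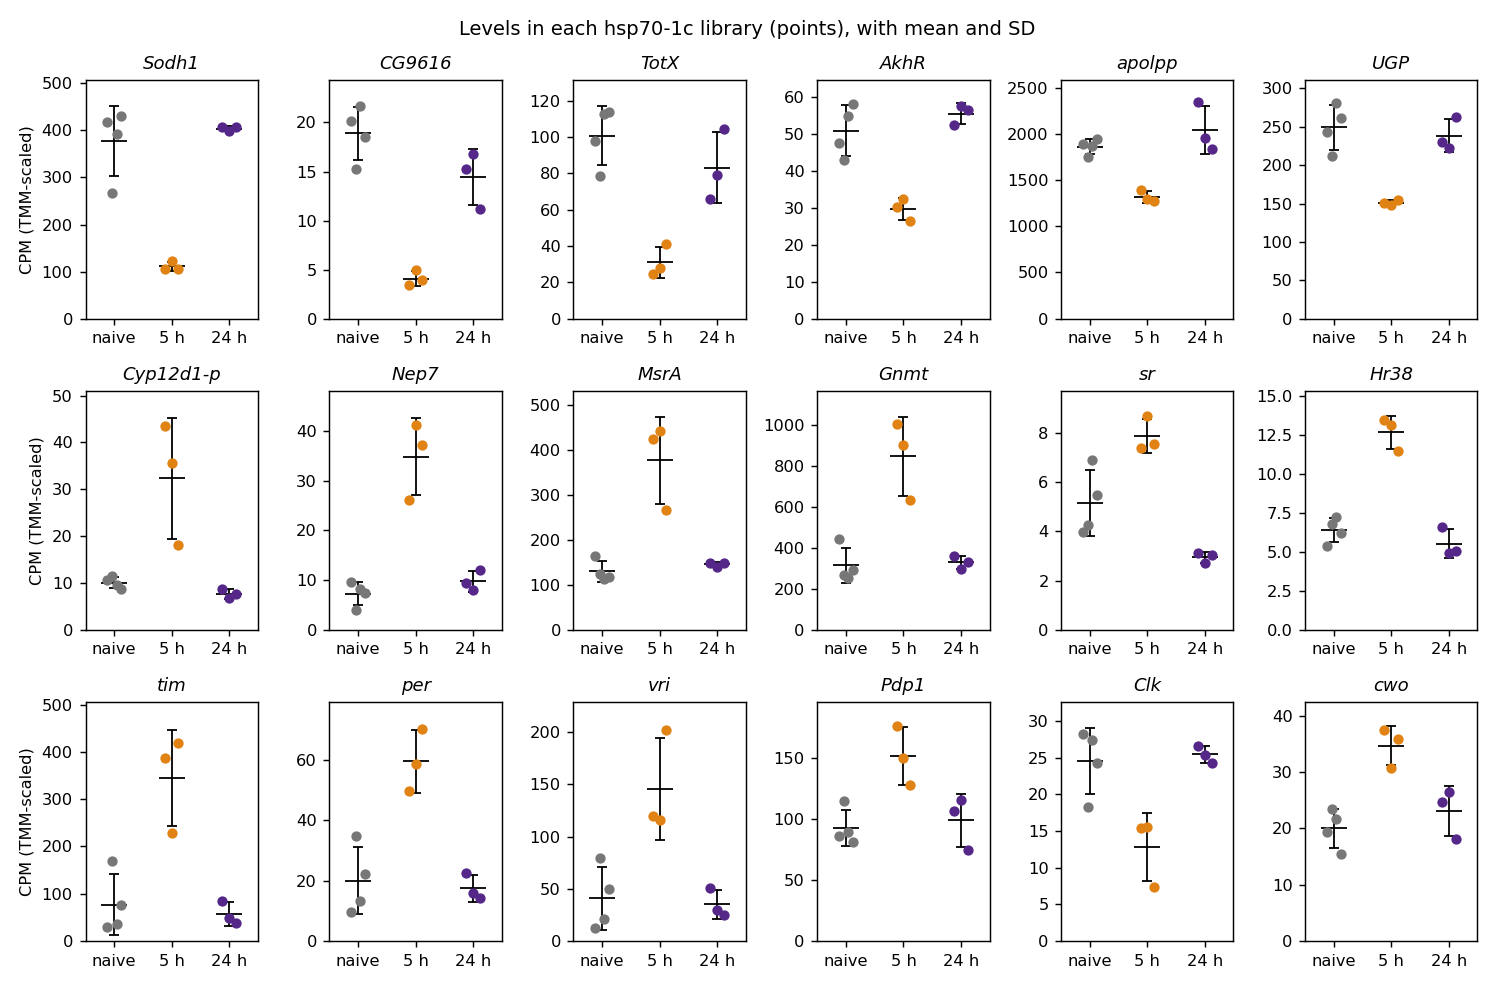
Points are the CPM of 18 genes in each naive, 5 h and 24 h library of hsp70-1c, with the mean and SD of each group as black bars and every axis starting at 0. The top row shows genes higher at 24 h than at 5 h, the middle row genes lower at 24 h, and the bottom row clock genes, none of which passed in edgeR.

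Genes of the fat body and of its hormonal control formed a second group. In the fat body list 3 of 16 tested genes were higher at 24 h and 0 were lower (18.8%, against 0.875% of all tested genes), with a median log2 difference of 0.26, against 0.02 over all tested genes. AkhR, the receptor of adipokinetic hormone, had 52.2, 57.6 and 56.4 CPM at 24 h, against 30.1, 32.4 and 26.5 CPM at 5 h (log2 difference 0.90 ± 0.12, edgeR adjusted p = 0.0023). The blood lipoprotein precursor apolpp had 2342, 1954 and 1841 CPM at 24 h, against 1396, 1297 and 1273 CPM at 5 h (0.63 ± 0.09, edgeR adjusted p = 0.0025). AkhR lies on chromosome 2L at 6711286 to 6716186 and apolpp on chromosome 4 at 1060969 to 1077273. Both genes passed whichever library was left out. Neither overlapped between the times, which was so for all 143 called genes. The lipase-like gene sxe2 had 514, 451 and 436 CPM at 24 h and 298, 258 and 199 CPM at 5 h, also without overlap (0.89 ± 0.13, edgeR adjusted p = 0.0042). DESeq2 called 5 members of this list, again all higher at 24 h, against 2.94% of all genes it adjusted. Not every member went this way: 12 of the 16 differences were positive and 4 negative. At an unadjusted edgeR p under 0.05 there were 9 members, 7 higher and 2 lower, against 10.1% of all tested genes. In hsp70-4c, 0 members were called higher at 24 h and 1 was called lower, while the list had a median of 0.21 on the log2 scale.

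AkhR and apolpp were also the 2 calls among the 29 tested genes of the lipid list (6.90%, against 1.36% of all tested genes), whose median log2 difference was −0.05. Of the 29, 14 had an unadjusted p under 0.05, 5 higher and 9 lower at 24 h, against 10.1% of all tested genes. DESeq2 called 2 higher and 1 lower, against 2.94% of all genes it adjusted. Other genes of fat handling, named after their values were seen, were the lipid droplet protein Jabba (0.85 ± 0.13, edgeR adjusted p = 0.0048) and the fatty acid binding protein fabp (0.34 ± 0.07, edgeR adjusted p = 0.018); the call of fabp was lost without replicate 1 or 2 at 24 h or without any 1 of the 3 replicates at 5 h. The nutrient-responsive peptide CCHa2 was the only call among 34 tested neuropeptide genes (2.94%, against 1.36% of all tested genes). It had 142, 231 and 144 CPM at 24 h and 71.3, 80.2 and 99.6 CPM at 5 h (log2 difference 1.04 ± 0.20, edgeR adjusted p = 0.030). Replicate 2 at 24 h stood well above the others, but the call was lost when replicate 1 or 2 at 5 h or naive replicate 4 was left out, and when only the 6 libraries at 24 h and 5 h were fitted (edgeR adjusted p up to 0.13 over all alternatives).

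The summed level of the fat body markers also differed between the times. Over 6 genes the sum was 3628 to 4349 CPM at 24 h and 2278 to 2798 CPM at 5 h, without overlap. AkhR and apolpp are 2 of the 6 and the only ones that passed. The storage protein Lsp2 had 1738, 2008 and 1342 CPM at 24 h and 1184, 649.5 and 711 CPM at 5 h, a log2 difference of 1.00 ± 0.27 that did not pass (edgeR adjusted p = 0.20). Of the rest, Fbp1 was at or near 0 in all 6 libraries, and the ranges of to and Cyp4g1 overlapped. The part of the fat body markers in the calls on sugar, lipid and fat body genes was not tested.

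**Figure D3:**
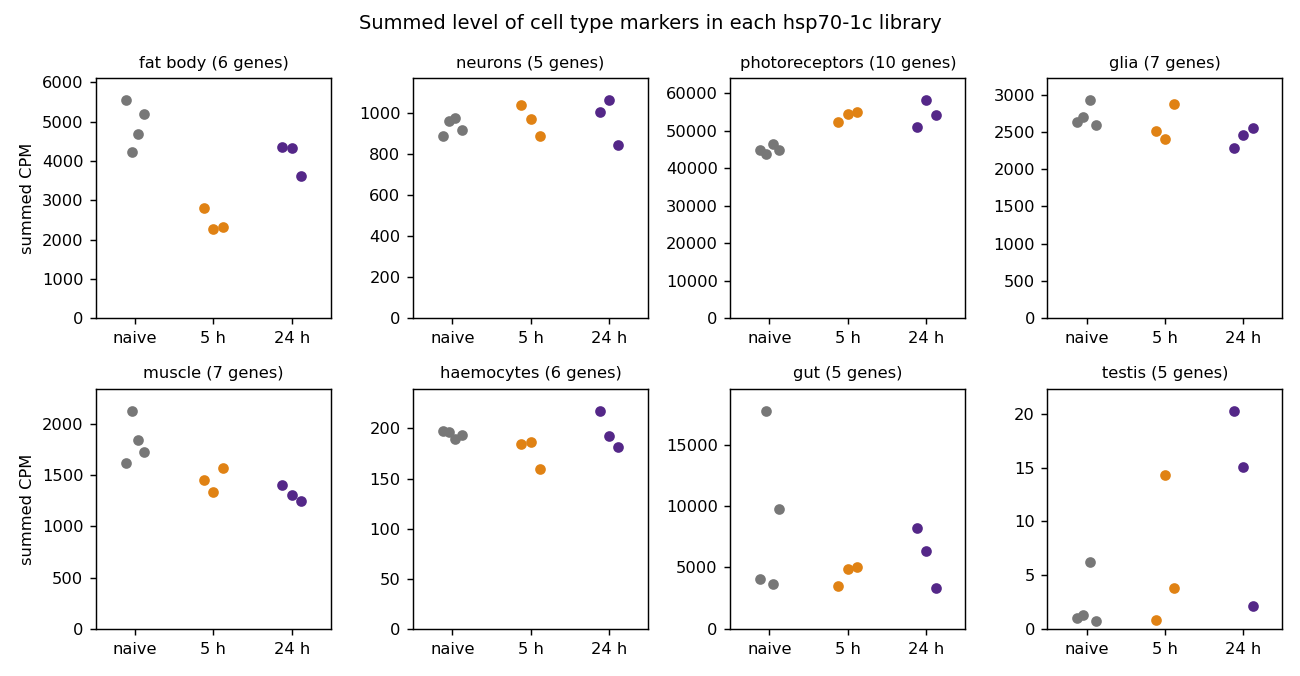
Points are the summed CPM of the marker genes of 8 cell types in each naive, 5 h and 24 h library, on axes that start at 0. Fat body markers at 24 h, 3628 to 4349 CPM, lie above those at 5 h, 2278 to 2798 CPM, and the ranges of the other 7 types overlap between 24 h and 5 h.

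The other marker sums overlapped between the times. Neuronal markers summed to 846 to 1063 CPM at 24 h and 887 to 1039 CPM at 5 h, mostly from nSyb and Syt1, while elav and futsch were near 0 throughout (at most 0.896 CPM at 24 h and 1.02 CPM at 5 h for elav). Photoreceptor markers summed to 50933 to 58086 CPM at 24 h and 52408 to 55061 CPM at 5 h. Gut markers, genes of digestive enzymes, summed to 3366 to 8232 CPM at 24 h and 3502 to 5062 CPM at 5 h. Testis markers were low but uneven, at 20.3, 15.1 and 2.14 CPM at 24 h and 0.795, 14.3 and 3.77 CPM at 5 h, with Mst84Da at 0. None of the 46 tested gut enzyme genes and none of the 20 tested testis genes passed in edgeR or DESeq2 (2 and 1 had an unadjusted p under 0.05).

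Among the remaining genes with the largest increases at 24 h, several have a role that is not stated here. CG9616 had 15.3, 16.8 and 11.2 CPM at 24 h and 3.41, 4.91 and 3.90 CPM at 5 h (log2 difference 1.80 ± 0.20, edgeR adjusted p = 0.00077). CG1979 starts 45 bases beyond the end of Sodh1 on the same strand and differed by 1.71 ± 0.26 (edgeR adjusted p = 0.0045). The gap is shorter than a 75-base read, and whether reads that run past Sodh1 were counted for CG1979 was not tested. In hsp70-4c the log2 differences were 1.62 for Sodh1 and 0.40 for CG1979 (edgeR adjusted p of 0.017 and 0.80). TotX, a secreted stress protein of the Turandot family, had 65.9, 79.0 and 105 CPM at 24 h and 24.8, 27.7 and 40.8 CPM at 5 h (1.42 ± 0.23, edgeR adjusted p = 0.016), and its call was lost without replicate 2 at 24 h or without replicate 1 or 2 at 5 h. It was the only call among 29 tested genes of immune recognition and signalling (3.45%, against 1.36% of all tested genes). CG14400 differed by 1.28, CG9664, an ABC transporter, by 1.24 and CG42329 by 1.41 on the log2 scale; CG42329 passed in only 2 of the 10 fits that left out a library.

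Enzymes of amino acid metabolism, grouped after their values were seen, were called in both directions. CG3999, the glycine decarboxylase, was higher at 24 h with a log2 difference of 1.18 ± 0.20 (edgeR adjusted p = 0.012); the call was lost without replicate 2 at 24 h or replicate 2 at 5 h. Argl, the argininosuccinate lyase, differed by 0.78 ± 0.09 and P5cr-2, a pyrroline-5-carboxylate reductase of proline synthesis, by 0.72 ± 0.09 (edgeR adjusted p of 0.00085 and 0.0016). The calls of the methionine cycle list went the other way. In this list 3 of 15 tested genes passed and were lower at 24 h (20%, against 0.485% of all tested genes) and 0 were higher. The median log2 difference was −0.23, with 6 members positive and 9 negative.

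MsrA, which repairs oxidised methionine, had 148, 139 and 148 CPM at 24 h, against 423, 441 and 266 CPM at 5 h (log2 difference −1.37 ± 0.19, edgeR adjusted p = 0.0058). Gnmt, which passes the methyl group of S-adenosylmethionine to glycine, had 362, 297 and 329 CPM at 24 h and 1008, 904 and 635 CPM at 5 h (−1.37 ± 0.24, edgeR adjusted p = 0.028). In both genes replicate 3 was the lowest of the 5 h libraries and still lay above the 24 h libraries. Sam-S, the S-adenosylmethionine synthetase, had 293, 274 and 267 CPM at 24 h and 540, 438 and 369 CPM at 5 h (−0.69 ± 0.14, edgeR adjusted p = 0.024). MsrA lies on chromosome 3L at 15511052 to 15513202. It passed whichever library was left out, but only 1 member of the list passed without replicate 1 or 2 at 24 h or without replicate 1 or 2 at 5 h. Gnmt passed in 4 and Sam-S in 5 of the 10 fits that left out a library: both were also lost without replicate 3 at 24 h, and Gnmt without naive replicate 4.

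Some activity-regulated genes were lower at 24 h. In this list 5 of 16 tested genes fell (31.2%, against 0.485% of all tested genes) and 0 rose, while 11 did not pass; the median log2 difference was −0.19 and 14 of the 16 were negative, against 46.4% of all tested genes. Hr38, a nuclear receptor, had 6.60, 4.94 and 5.04 CPM at 24 h, against 13.4, 13.1 and 11.4 CPM at 5 h (log2 difference −1.19 ± 0.16, edgeR adjusted p = 0.0025). The zinc finger factor sr had 3.12, 2.69 and 3.02 CPM at 24 h, against 7.39, 8.69 and 7.54 CPM at 5 h (−1.41 ± 0.22, edgeR adjusted p = 0.0059). Hr38 lies on chromosome 2L at 20683462 to 20714588 and sr on chromosome 3R at 18090803 to 18135583. Both were low in CPM but tightly grouped at each time. The transcription factor cbt had 41.8, 41.6 and 41.3 CPM at 24 h and 60.2, 69.4 and 59.0 CPM at 5 h (−0.60 ± 0.09, edgeR adjusted p = 0.0042).

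The other calls of that list were CG14186 (−0.58 ± 0.10, edgeR adjusted p = 0.010) and the potassium channel Irk1 (−0.64 ± 0.13, edgeR adjusted p = 0.024), whose call was lost in 5 of the 10 fits that left out a library. The phosphatase gene puc lay just outside the threshold at −0.52 ± 0.12 (edgeR adjusted p = 0.053). The Fos and Jun genes kay and Jra had log2 differences of −0.08 and −0.10 and overlapped between the times. Leaving out 1 library gave 4 to 6 calls in this list, all of them lower at 24 h.

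In the core clock list 0 of 18 tested genes passed in edgeR, against 1.36% of all tested genes. The list median was 0.00 on the log2 scale, with 9 members positive and 9 negative. Of its 18 members 8 had an unadjusted edgeR p under 0.05, against 10.1% of all tested genes, 3 of them higher and 5 lower at 24 h. DESeq2 called 6 of the 18, against 2.94% of all genes it adjusted. The genes tim, per, vri and Pdp1 are described here although they were chosen after their values were seen. The clock gene tim had 85.3, 47.9 and 37.8 CPM at 24 h, against 386, 229 and 419.5 CPM at 5 h, a log2 difference of −2.59 ± 0.74 (edgeR adjusted p = 0.23, DESeq2 adjusted p = 0.0089). Its partner per had 22.5, 15.9 and 14.1 CPM at 24 h, against 49.6, 58.7 and 70.3 CPM at 5 h (−1.76 ± 0.44, edgeR adjusted p = 0.16, DESeq2 adjusted p = 0.0089). In both genes no library at 24 h reached the lowest library at 5 h.

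The activator Clk went the other way, with 26.7, 25.4 and 24.3 CPM at 24 h and 15.4, 15.6 and 7.41 CPM at 5 h (log2 difference 0.98 ± 0.24, edgeR adjusted p = 0.11, DESeq2 adjusted p = 0.0044). The repressor vri had 50.9, 29.3 and 24.7 CPM at 24 h and 119, 115.5 and 202 CPM at 5 h (−2.05 ± 0.68), and passed in neither tool (DESeq2 adjusted p = 0.061). DESeq2 also called Pdp1, cwo and Ugt35B1, with edgeR log2 differences of −0.62, −0.59 and 0.75. The naive libraries, which share in the estimate of spread, were uneven for these genes: tim ranged over 28.4 to 169.6 CPM and vri over 12.3 to 79.6 CPM in naive heads. Where in the day each collection fell is not given by the labels, so the part of the time of day in this and in the other differences was not tested. The gene cu, the fly nocturnin, a deadenylase, was called and lower at 24 h at −0.63 ± 0.10 (edgeR adjusted p = 0.0060); it was picked out after its values were seen.

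Cytochrome P450 genes were called in both directions: of 75 tested, 5 were higher and 2 were lower at 24 h (9.33%, against 1.36% of all tested genes), with a median log2 difference of 0.00. Cyp12d1-p had 8.77, 6.73 and 7.56 CPM at 24 h, against 43.4, 35.5 and 18.2 CPM at 5 h, the largest decrease among the calls with at least 5 CPM (−2.07 ± 0.28, edgeR adjusted p = 0.0059). Its call was lost when only the 6 libraries at 24 h and 5 h were fitted (edgeR adjusted p = 0.069). It has a near-identical copy, Cyp12d1-d, so its reads cannot be assigned to 1 of the copies with certainty. Cyp6w1 had 146, 162 and 213 CPM at 24 h and 357, 460 and 426 CPM at 5 h (−1.25 ± 0.18, edgeR adjusted p = 0.0060). The higher ones were Cyp4ac1, Cyp6t1, Cyp12c1, Cyp4ac2 and Cyp28d1, with log2 differences of 0.37 to 0.82. Cyp4ac2 passed in 3 and Cyp28d1 in 4 of the 10 fits that left out a library. The adjacent Cyp4ac1 and Cyp4ac2 are related genes whose reads could be shared.

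In the list of glutathione and UDP-glycosyl transferases 1 of 59 tested genes passed (1.69%, near the 1.36% of all tested genes). This was GstE3, a glutathione transferase that was lower at 24 h (−0.77 ± 0.12, edgeR adjusted p = 0.0059). The list as a set did not share that direction. Of the 59, 23 had an unadjusted p under 0.05, 17 higher and 6 lower, against 10.1% of all tested genes. DESeq2 called 2 higher and 2 lower, against 2.94% of all genes it adjusted. Keap1, the inhibitor of the factor CncC and named after its values were seen, was lower at 24 h (−0.59 ± 0.11, edgeR adjusted p = 0.015). Keap1 had 15.5, 15.3 and 15.2 CPM at 24 h and 22.3, 22.3 and 24.6 CPM at 5 h. Its call was lost without replicate 1 or 2 at 24 h or replicate 3 at 5 h. Nep7, a gene of the neprilysin family of peptidases, had 9.37, 7.93 and 12.1 CPM at 24 h, against 26.2, 41.1 and 37.2 CPM at 5 h (−1.82 ± 0.27, edgeR adjusted p = 0.0078), and was not called without replicate 2 at 24 h (edgeR adjusted p up to 0.056 over the fits that left out a library). The activin-like ligand daw had 28.5, 26.6 and 27.6 CPM at 24 h and 40.3, 59.7 and 51.4 CPM at 5 h (−0.87 ± 0.15, edgeR adjusted p = 0.0091), a call that was lost without replicate 2 at 24 h.

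In the lists that bear on nerve signalling and memory no gene passed in edgeR or in DESeq2, against 1.36% of all tested genes in edgeR, a share at which lists this short may hold no call. These were the list of cAMP signalling and memory genes (0 of 21; 1 with an unadjusted p under 0.05), the monoamine list (0 of 25; 3), the synaptic list (0 of 19; 2) and the list of courtship and sex genes (0 of 20; 2). The genes with the smallest p in the memory list were Ank2 and CrebB, with log2 differences of 0.55 and 0.38 (edgeR adjusted p of 0.47 and 0.60). Their list medians lay between −0.01 and 0.08 on the log2 scale.

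Chaperones other than the inducible Hsp70 copies gave 0 calls of 22 in edgeR, against 1.36% of all tested genes. Of the 22, 8 had an unadjusted p under 0.05, against 10.1% of all tested genes. Among these, 2 were higher and 6 lower at 24 h. DESeq2 called 3 of the 22, all lower at 24 h, against 2.94% of all genes it adjusted. Hsp68 had 12.5, 10.9 and 10.5 CPM at 24 h and 26.0, 15.6 and 16.9 CPM at 5 h, a log2 difference of −0.78 ± 0.21 (edgeR adjusted p = 0.11). Hsp83, the fly Hsp90, averaged 513 CPM at 24 h and 720 CPM at 5 h (−0.49 ± 0.15, edgeR adjusted p = 0.19), with no overlap between the libraries of the times. Antimicrobial peptides (0 of 31; 4 with an unadjusted p under 0.05), cytoplasmic ribosomal proteins (0 of 80; 2), mitochondrial ribosomal proteins (0 of 70; 2), the respiratory chain (0 of 72; 0) and the proteasome (0 of 31; 0) had no call in edgeR or in DESeq2. The antimicrobial peptides, secreted bacteria-killing proteins, spread over log2 differences of −2.68 to 0.82. For the cytoplasmic ribosomal proteins 68 of 80 differences were positive, but the median was 0.05 on the log2 scale. Photoreceptor, eye pigment and odorant-binding protein genes had 0 calls of 34, 12 and 33 in edgeR and 1 each in DESeq2. Chemoreceptor, muscle and haemocyte genes had 0 calls of 55, 27 and 15 in both tools.

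**Figure D4:**
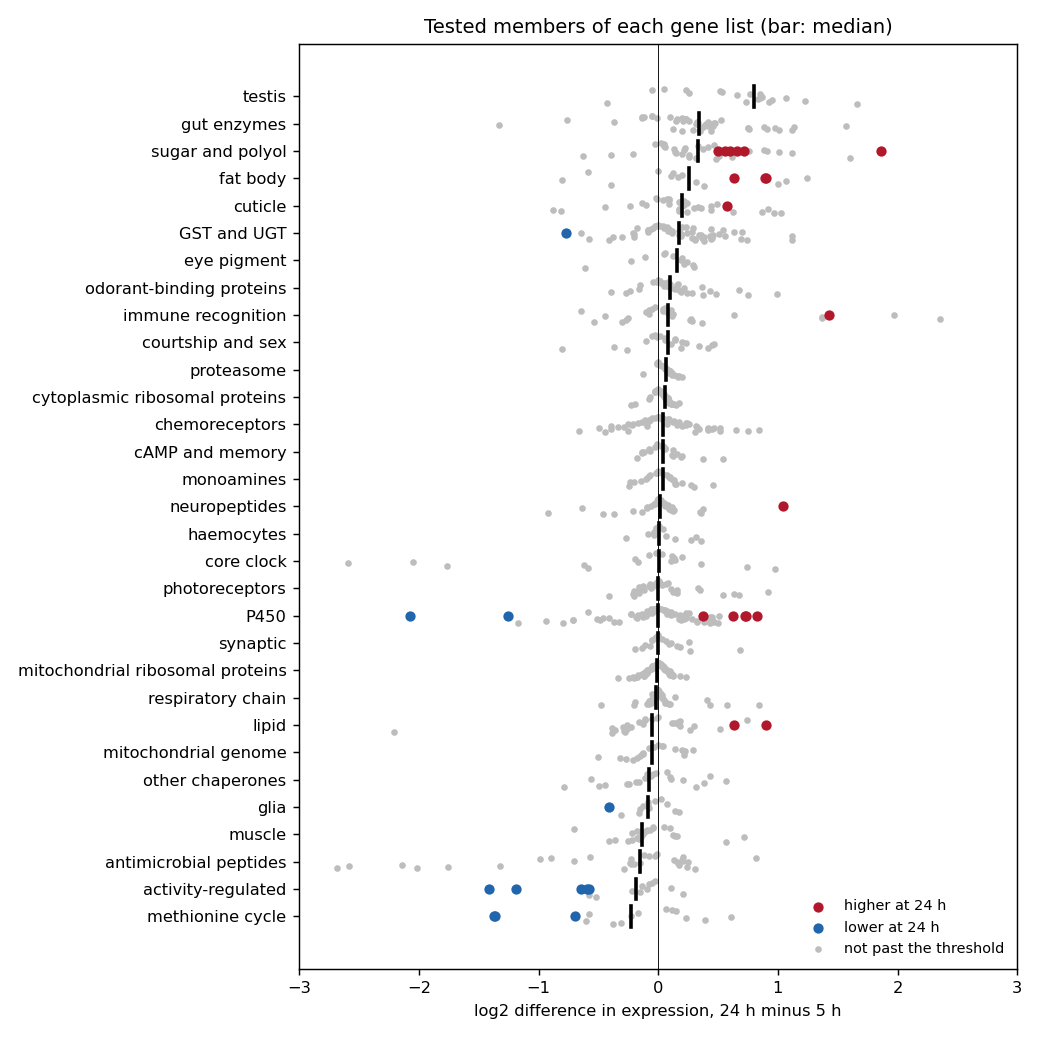
Each point is a tested member of a gene list at its log2 difference, 24 h minus 5 h, with black bars at the list medians. Coloured points passed in edgeR: those of sugar and polyol metabolism and fat body lie to the right, those of the activity-regulated and methionine cycle lists to the left, and the clock points at −2.59, −2.05 and −1.76 are grey.

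The naive libraries of the strain place these differences. For the 92 genes higher at 24 h, the median log2 difference was 0.69 for 24 h minus 5 h, 0.02 for 24 h minus naive and −0.67 for 5 h minus naive. For the 51 genes lower at 24 h, the medians were −0.64, −0.04 and 0.61 in the same order. These comparisons share libraries, and the genes were chosen on the first of them, so the values stand side by side with no test. Sodh1 had 418, 268, 393 and 431 CPM in naive heads, a range that takes in its 24 h level. In naive heads MsrA had 164, 123, 113 and 118 CPM, near its 24 h level too, and Hr38 had 5.38, 6.77, 7.21 and 6.22 CPM. The level of sr in naive heads, 3.98, 4.27, 6.91 and 5.47 CPM, lay between those at 24 h and 5 h.

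The same interval was sampled in hsp70-4c, a strain of the same series with no library in common. There 102 of 10400 tested genes (0.981%) passed, 66 higher at 24 h (0.635%) and 36 lower (0.346%); this count was 9 without replicate 3 at 24 h, 44 without replicate 2 at 5 h, 46 without replicate 1 at 24 h, 48 without replicate 3 at 5 h and 67 without replicate 1 at 5 h. The genes called in both strains numbered 37, which is 25.9% of the 143 calls in hsp70-1c and 36.3% of the 102 in hsp70-4c, and each had the same sign in both. They include Sodh1, Akr1B, UGP, Galk, Taldo, CG8036, Rpi, TotX, Acer, Jabba, Nep7, Sam-S and Hr38. Of the 91 genes higher at 24 h in hsp70-1c that could be tested in hsp70-4c, 88 had a positive difference there (47.9% of all tested genes did), and all 51 lower genes had a negative one (52.1% of all tested genes did). Sodh1 differed by 1.62 and Hr38 by −1.45 on the log2 scale in hsp70-4c (edgeR adjusted p of 0.017 and 0.011).

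**Figure D5:**
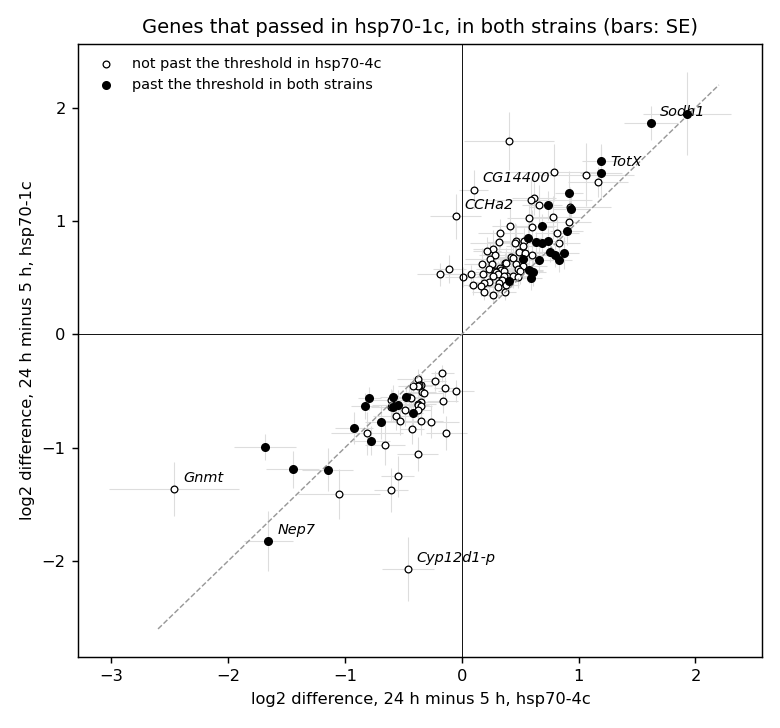
Points are the genes called in hsp70-1c that could be tested in hsp70-4c, with SE bars. The log2 difference of 24 h minus 5 h is horizontal for hsp70-4c and vertical for hsp70-1c. Filled points passed in both strains, and the dashed line marks equal values. Most points lie where both differences have the same sign. Among those far from the line, Cyp12d1-p, CCHa2, CG14400 and CG1979 differed more in hsp70-1c and Gnmt more in hsp70-4c.

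The test of the difference between the strains found no gene in edgeR: 0 of 10764 had an adjusted p under 0.05, and 406 (3.77%) had an unadjusted p under 0.05. The genes with the smallest p were CG14400 and fit, both with an edgeR adjusted p of 0.20. Next came CG9616, whose difference was larger in hsp70-1c by 2.21 ± 0.48 on the log2 scale (edgeR adjusted p = 0.54). It had too few reads for the test in hsp70-4c alone, so it is not among the 91 genes compared there. CG14400 had 26.3, 24.7 and 19.5 CPM at 24 h and 12.4, 8.02 and 8.71 CPM at 5 h in hsp70-1c. In hsp70-4c it had 29.7, 36.1 and 39.0 CPM at 24 h and 32.4, 35.0 and 30.5 CPM at 5 h, so its difference was larger in hsp70-1c by 1.17 ± 0.22 on the log2 scale. DESeq2 called it for the difference between strains (adjusted p = 0.0071), as did edgeR without replicate 1 of hsp70-1c at 5 h (adjusted p = 0.027).

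The gene fit, a female-enriched gene of the fat body, had 149, 134 and 133 CPM at 24 h and 104, 121 and 157 CPM at 5 h in hsp70-1c. In hsp70-4c it had 113, 119 and 130 CPM at 24 h and 729, 501 and 317 CPM at 5 h, and the difference between the strains was 2.22 ± 0.39 on the log2 scale. DESeq2 called this difference too (adjusted p = 4.1e-06), as did edgeR without replicate 3 of hsp70-4c at 5 h (adjusted p = 0.012), a fit that also called CG34376. Cyp12d1-p differed between the strains by −1.61 ± 0.39, and edgeR called it only without replicate 3 of hsp70-1c at 5 h (adjusted p = 0.018). CCHa2, which passed in hsp70-1c, had a log2 difference of −0.05 in hsp70-4c, and the difference between the strains had an unadjusted edgeR p of 0.0032 that did not survive adjustment.

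Of the 143 called genes, 132 are protein-coding (1.38% of the 9595 tested) and 8 are non-coding (1.21% of the 663 tested). The other 3 have no symbol or position in the reference tables (1.59% of the 189 tested). Each of these shares is near the 1.36% of all tested genes. Among the non-coding genes 6 are antisense RNAs, and 4 of the 8 overlap a called gene on the opposite strand: asRNA:CR45955 with CG32444, asRNA:CR45195 with Sodh2, asRNA:CR44052 with Gba1b, and asRNA:CR44807 with pippin. Each of the 4 pairs moved in 1 direction. asRNA:CR45955, on chromosome 3L at 21636643 to 21637314, shares 366 exon bases with CG32444 and had 116, 107 and 84.1 CPM at 24 h and 52.4, 41.1 and 39.8 CPM at 5 h (log2 difference 1.20 ± 0.15, edgeR adjusted p = 0.0016). The library kit keeps the strand, but the strand setting of the counting is not given in the sources used here, so the reads of such pairs cannot be told apart. In all, 36 called genes share exon bases with a tested gene on the opposite strand, among them Galk, UGP, Hr38, apolpp and CG14400, and their values carry the same doubt. The share of all tested genes with such an overlap was not computed, so these counts do not set the calls apart. By chromosome, the calls made up 0.547% of the 1644 tested genes on X (9 genes) and 1.89% of the 1853 on 2L (35 genes), against 1.36% overall; this difference was not tested.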

How the data were processed

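Heads of about 100 male flies per replicate gave poly(A) RNA, directional libraries and 75-base single-end reads, per the labels' protocols. Reads were trimmed with Trimmomatic, aligned with STAR 2.5.0a to dm6 and counted with featureCounts 1.5.0-p1, per the submitters' processing notes; settings, strand and annotation release are not given in the sources used here. The deposited values are raw read counts per gene, made by the authors. The 12 read-status lines were left out of library sizes and tests. Symbols and positions came from an Ensembl annotation of the same build and covered 17253 of 17559 genes.

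The 10 hsp70-1c libraries were fitted together in edgeR 4.0.16 (R 4.3.3): filterByExpr (minimum count 10, minimum total 15), TMM scaling, 1 mean per group, robust quasi-likelihood test, Benjamini-Hochberg adjustment over all tested genes and a threshold of 0.05. The SE is the log2 difference divided by the square root of F. CPM are counts per 1e+06 reads at TMM-scaled library sizes. hsp70-4c was fitted alone with its 10 libraries, and the difference between strains over the 20 libraries of both. DESeq2 1.42.0, other filters and fits, and each library left out in turn were alternatives; single values used exact permutation tests (SciPy 1.17.1). The p-values measure the spread between collections of flies. A floor of 3 counts over a group was used for genes at 0, for counting error only.

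Genes were named by a rule: up to 12 called genes per direction with the largest change, at least 5 CPM and no overlap; up to 4 called members per list; and 2 members of lists without a call. The other genes named were chosen after their values were seen, among them Irk1, puc, kay, Jra, fbp, Galk, Galt, Pfk, Eno, Ald1, Zw, Pgd, Lsp2, Hsp83 and the P450 genes Cyp12c1, Cyp4ac2 and Cyp28d1. The members, the 32 lists and the rule were chosen with earlier results of these data known. On simulated data for this comparison (10401 genes), 37.3% of 1.5-fold, 74.6% of 2-fold and 92.4% of 4-fold changes were recovered, and 9.33% of calls were false. For the difference between strains (10631 genes) the values were 10.4%, 61.2%, 90.9% and 8.47%. Sequences were not analysed here. The values of 1 called list member are not reported here.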

Additional observations from a re-analysis of the deposited data

Results flagged for a closer look

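In 6 of 78 genes examined, 1 naive hsp70-1c library stood apart from the other 3 by Dixon's test; chance flags about 1 in 20 groups. asRNA:CR45955 had 92.65 CPM in naive replicate 3, against 118.2 to 123.4 CPM in the others. In naive replicate 2, CG8303 had 9.273 CPM against 11.34 to 11.68 CPM, CG31710 had 30.62 CPM against 20.23 to 21.84 CPM, and the lipid-binding gene Npc2h had 303.8 CPM against 447.2 to 460.0 CPM. In naive replicate 4, the mitochondrial genes mt:CoII and mt:lrRNA had 8733 and 87460 CPM, against 12090 to 12310 CPM and 131800 to 138700 CPM in the others. No reason for these values was tested.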

How the results depend on the processing

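The hsp70-1c count of 143 genes was 261 in DESeq2 and 68 to 175 with 1 library left out. It was 143 with DESeq2 size factors, 158 with no filter, 176 with the replicate number as a block, 101 in the fit of the 6 libraries alone, 172 with all 32 libraries and 133 without robust estimation. The hsp70-4c count of 102 was 171 in DESeq2, 108 with the block and 9 to 69 with 1 library left out. The strain difference, with 0 calls, gave 2 in DESeq2, 1 with the block and 0 to 2 with 1 library left out. The replicate numbers were not treated as pairs: deviations of same-numbered hsp70-1c libraries correlated at -0.005, 0.25 and 0.32, and not every library correlated best with its own number. With the block, CG14400 passed for the strain difference (1.19 ± 0.16, edgeR adjusted p = 0.023), and Nep7 and Galk did not pass in hsp70-1c (edgeR adjusted p of 0.075 for Nep7). The Hsp70 difference ranged over 0.0208 to 0.210 and that in reads assigned to no feature over 0.748 to 2.0 percentage points with 1 library left out. Over the named genes, 1240 of 1326 values kept their side of the threshold, 78 lost it, 8 gained it and 0 changed sign. The inducible Hsp70 copies had too few reads in hsp70-1c for the test across genes. The causes of these shifts were not tested.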
